A study of Mus musculus with 6 samples.

Results

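The type IV collagens are the 6 genes Col4a1 to Col4a6, which were taken by symbol from the exonic and intronic tables of the series and were all present, among 23227 genes with exonic and 23231 with intronic values. The study sequenced total RNA of mouse mesenchymal stem cells, named fibroblasts in some labels, that had been immortalized and grown from single clones. Its 6 groups were Dicer f/f cells (Dicer WT), Dicer -/- cells (Dicer KO), and Dicer WT cells transfected with the empty vector or with a vector carrying Pbx3, Sox9 or Tead4. Each genotype is 1 clone, so loss of Dicer and the clone cannot be told apart, and the 3 factor groups share the same vector libraries. Each group gave 2 libraries, with 6130267 to 23501655 exonic and 3156973 to 10205497 intronic reads per library.

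Type IV collagen is the network-forming collagen of basement membranes, the sheets of matrix that separate cells from the tissue around them. Alpha chains wind into a triple helix inside the cell, and the trimers join end to end after secretion. The alpha 1 and alpha 2 chains form the common trimer found in nearly every basement membrane, alpha 3, alpha 4 and alpha 5 form the trimer of the kidney glomerulus and the lung, and alpha 5 with alpha 6 forms a trimer of skin and of smooth muscle. The genes lie in 3 head-to-head pairs, Col4a1 with Col4a2, Col4a3 with Col4a4 and Col4a5 with Col4a6, so that the members of a pair are transcribed away from each other. In the annotation of the GRCm38 build the starts of Col4a3 and Col4a4 lie 72 bases apart, and Col4a1 and Col4a2, on chromosome 8, overlap by 21 bases at their starts. Col4a5 and Col4a6, on chromosome X, have starts 1309 bases apart. Dicer cuts microRNA precursors into mature microRNAs, and the miR-29 family is known for binding collagen transcripts.

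The RefSeq windows around the start sites (GRCm38.p6, 250 bases before to 50 after the start, 5′ to 3′ on the strand of the gene) are shown for the 4 genes that were expressed, since the members of a pair did not always move together. Capitals mark CCAAT on either strand, or in Col4a6 the letters TGATTGA and CATTCC. The Col4a1 window is chr8:11312777-11313076 on the minus strand and the Col4a2 window is chr8:11312555-11312854 on the plus strand. The Col4a5 window is chrX:141475169-141475468 on the plus strand and the Col4a6 window is chrX:141474027-141474326 on the minus strand.
Col4a1: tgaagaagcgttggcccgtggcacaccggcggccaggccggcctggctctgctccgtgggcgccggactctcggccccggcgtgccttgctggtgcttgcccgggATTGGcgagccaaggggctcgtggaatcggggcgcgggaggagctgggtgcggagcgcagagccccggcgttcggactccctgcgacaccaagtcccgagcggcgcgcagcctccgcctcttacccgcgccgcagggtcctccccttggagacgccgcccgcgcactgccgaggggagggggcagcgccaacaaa
Col4a2: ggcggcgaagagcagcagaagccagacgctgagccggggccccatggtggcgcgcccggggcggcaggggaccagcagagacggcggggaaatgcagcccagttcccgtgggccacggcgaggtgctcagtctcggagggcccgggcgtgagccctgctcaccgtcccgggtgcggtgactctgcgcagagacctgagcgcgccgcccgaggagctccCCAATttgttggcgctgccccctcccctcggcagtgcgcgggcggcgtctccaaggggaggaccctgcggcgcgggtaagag
Col4a5: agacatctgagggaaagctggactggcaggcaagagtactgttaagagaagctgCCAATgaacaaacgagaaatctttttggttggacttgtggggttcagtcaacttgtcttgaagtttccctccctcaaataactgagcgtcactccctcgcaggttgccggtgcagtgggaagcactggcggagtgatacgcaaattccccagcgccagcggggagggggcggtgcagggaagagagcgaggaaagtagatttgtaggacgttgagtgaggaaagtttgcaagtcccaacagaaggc
Col4a6: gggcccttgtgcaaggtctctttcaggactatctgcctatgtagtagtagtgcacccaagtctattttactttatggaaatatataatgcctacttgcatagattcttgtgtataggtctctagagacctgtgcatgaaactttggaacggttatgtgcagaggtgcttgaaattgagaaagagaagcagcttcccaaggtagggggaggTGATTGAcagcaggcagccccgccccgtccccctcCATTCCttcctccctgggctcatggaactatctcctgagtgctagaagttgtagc

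The windows of Col4a1 and Col4a2 overlapped by 78 bases and were 74.0% and 73.7% G or C, against 52.7% for Col4a5 and 48.3% for Col4a6. The pairs therefore differed in layout, with 1 shared start region for Col4a1 and Col4a2 and separate windows for Col4a5 and Col4a6. Both strands were searched for GGAATG (letters bound by TEAD factors, read as CATTCC on the other strand), TGATTGA (PBX), ACAATG and ACAAAG (SOX), CCAAT and the GC box GGGCGG. The Col4a6 window held 1 GGAATG match at position -5 and 1 TGATTGA match at position -40 from the start, and these letters were in 14.6% and 2.68% of 27025 promoter windows of the same length. CCAAT was found once each in the windows of Col4a1, Col4a2 and Col4a5 and in 37.9% of all windows. GGGCGG, not capitalised above, had 3 matches in Col4a2 and 1 each in Col4a1, Col4a5 and Col4a6, and was in 35.9% of all windows. ACAATG and ACAAAG, found in 12.8% and 18.7% of all windows, had 0 matches in these 4 windows.

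The 3′ UTRs of all 6 genes hold the letters TGGTGCT, which pair with the seed (bases 2 to 8, in capitals) shared by the miR-29 family. These letters were present in 11.8% of the 20641 mouse genes with an annotated 3′ UTR, whose median length was 800 bases, against 971 to 4708 bases in the 6 collagen genes. The mature microRNAs (RefSeq) and a 26-base window around 1 site for each expressed collagen gene, with the site in capitals, are as follows.
mmu-miR-29a-3p: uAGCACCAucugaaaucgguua
mmu-miR-29b-3p: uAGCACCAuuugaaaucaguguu
mmu-miR-29c-3p: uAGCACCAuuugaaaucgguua
Col4a1: ccgtcacaacaTGGTGCTactccccc
Col4a2: gaaggccacgtTGGTGCTtatccttc
Col4a5: gctcccaccaaTGGTGCTaatatcct
Col4a6: ttccatccatcTGGTGCTaacattcc

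Col4a1 and Col4a6 held 1 such site each, Col4a2 and Col4a4 held 2, Col4a5 held 3 and Col4a3 held 4. The let-7 family site CTACCTC was in 0 of the 6 genes and in 7.99% of genes. A match of letters is a description and no measure of binding, and mature microRNAs were not measured in these libraries.

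Exonic totals of the manipulated genes were read first. Dicer1 had 1407 and 1343 normalised counts in Dicer WT and 935 and 1067 in Dicer KO (-0.46 ± 0.14, limma adjusted p = 0.0859), and a total over the gene does not check a deletion of part of it. Pbx3 rose by 7.04 ± 0.21 in Pbx3 cells and Tead4 by 7.17 ± 0.18 in Tead4 cells. Sox9 had 116 and 47.5 counts in vector and 179 and 186 in Sox9 cells, a change of 1.29 ± 0.39 that did not pass (adjusted p = 0.272), so its total checks that label only weakly. In Dicer KO, where 9.28% of all genes rose, Tead4 (2.24 ± 0.51, limma adjusted p = 0.0415) and Pbx3 (0.83 ± 0.15, 0.0232) rose in exonic reads. Neither passed in intronic reads. Sox9 did not pass there, with 63.2 and 387 exonic counts in Dicer WT and 33.0 and 239 in Dicer KO.

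Levels are compared between genes per kilobase of annotated exon, on 1 scale that joins all 12 libraries. In Dicer WT cells Col4a1 stood at 178 and 160 normalised counts per kilobase in the 2 libraries, Col4a2 at 102 and 81.7, Col4a5 at 82.6 and 94.8, and Col4a6 at 9.64 and 12.8. Col4a1 had the highest mean of the chains in every group, although its libraries overlapped with those of Col4a5 in Sox9 cells, and Col4a6 was the lowest of these 4 in every group. Col4a3 and Col4a4, the other chains of the glomerular trimer, had 0 to 4 exonic reads in each of the 12 libraries and summed to 11 and 12 reads among 159191600. Their intronic reads numbered 1 to 6 and 0 to 10 per library, so that neither gene could be tested and no change in them was detectable at this depth.

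The ratio of Col4a1 to Col4a2 per kilobase lay between 1.499 and 2.63. Dicer WT libraries had 1.74 and 1.96, Dicer KO libraries 2.29 and 2.63, vector libraries 1.72 and 1.84, Pbx3 libraries 1.68 and 1.92, Sox9 libraries 1.499 and 1.62, and Tead4 libraries 1.76 and 1.81. Col4a5 to Col4a6 was 8.57 and 7.41 in Dicer WT and 4.59 and 7.25 in vector, but 733 and 3023 in the Dicer KO libraries. The last 2 values rest on 4 and 1 reads of Col4a6.

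**Figure D1:**
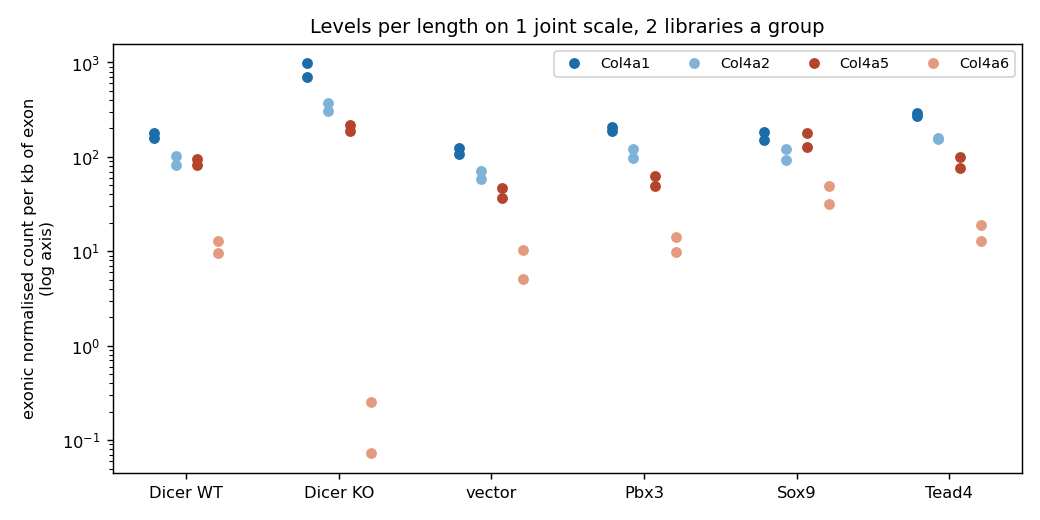
Exonic normalised count per kilobase of exon (log axis) of Col4a1, Col4a2, Col4a5 and Col4a6 in the 6 groups, with 1 point for each of the 2 libraries of a group. Col4a6 lies between 5.08 and 48.8 outside Dicer KO and at 0.255 and 0.0723 there, while Col4a1 reaches 694 and 976.

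The order of the groups differed between the pairs. Col4a1 was highest in Dicer KO with a mean of 6232 joint-scale exonic counts, followed by Tead4 with 2085, Pbx3 with 1472, Dicer WT with 1262, Sox9 with 1244 and vector with 863; Dicer WT and Sox9 overlapped and the other neighbours did not. Col4a2 followed with Dicer KO at 2233, Tead4 at 1036, Pbx3 at 730, Sox9 at 712, Dicer WT at 607 and vector at 431, and Pbx3, Sox9 and Dicer WT overlapped in turn. For Col4a5 the order was Dicer KO at 1362, Sox9 at 1032, Dicer WT at 596, Tead4 at 589, Pbx3 at 372 and vector at 281, with an overlap only between Dicer WT and Tead4. Col4a6 was highest in Sox9 at 320, and then Tead4 at 126, Pbx3 at 96.1, Dicer WT at 89.5 and vector at 60.9 overlapped one after another, while Dicer KO stood apart at 1.31. Levels of untransfected Dicer WT and vector cells come from tables that the authors normalised separately, and on the joint scale Dicer WT exceeded vector by 0.55 for Col4a1, 0.49 for Col4a2, 1.09 for Col4a5 and 0.63 for Col4a6 (log2, no test).

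Dicer KO cells were set against Dicer WT cells to ask how the chains stand without Dicer. In exonic reads Col4a1, Col4a2 and Col4a5 rose and Col4a6 fell to near absence. All 4 measured members passed limma, a linear model fitted to the 10706 genes whose mean reached 50 normalised counts, at a Benjamini-Hochberg adjusted p under 0.05, where 16.6% of genes passed, 9.28% as higher and 7.36% as lower. Col4a6 reached that mean only through Dicer WT, at 163 counts against 2.35 in Dicer KO, so its place in this count is a description. Col4a1, the alpha 1 chain, had 2410 and 2181 normalised counts in Dicer WT and 9330 and 13056 in Dicer KO, a log2 fold change of 2.27 ± 0.19 (SE, 2 libraries a group; limma adjusted p = 0.0050). Col4a2, its partner in the common trimer, went from 1225 and 985 to 3618 and 4404, a rise of 1.86 ± 0.18 (adjusted p = 0.0058). In both genes every Dicer KO library lay above every Dicer WT library. Such separation of 2 libraries from 2 is a description, and its share over all genes is not given here. Col4a5, the chain that enters both other trimers, went from 1008 and 1161 to 2266 and 2630, a rise of 1.17 ± 0.15 (adjusted p = 0.0113), again without overlap.

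Col4a6, whose chain pairs with alpha 5, had 140 and 186 normalised counts in Dicer WT and 3.67 and 1.03 in Dicer KO. Its fitted log2 change was -5.72 ± 0.62 (limma adjusted p = 0.0071), a value that depends on the pseudocount of 1 at so low a level. The reads behind it were 315 in Dicer WT and 5 in Dicer KO, a ratio of 69.3 between the group means with a 95% exact Poisson interval of 29.7 to 213 that covers the counting error of the 5 reads only. Its head-to-head neighbour Col4a5 rose in the same libraries. Fewer cells with the transcript and less transcript per cell cannot be told apart in bulk RNA.

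Intronic reads, most of which stem from RNA not yet spliced, gave the same directions for all 4 genes, in a comparison where 6.51% of 10215 genes passed, 2.86% as higher and 3.65% as lower. Col4a1 had 752 and 639 intronic counts in Dicer WT and 3404 and 2591 in Dicer KO, a rise of 2.10 ± 0.19 (limma adjusted p = 0.0093). Col4a2 had 430 and 338 against 1483 and 1257, a rise of 1.84 ± 0.18 (adjusted p = 0.0110). Both genes of the first pair thus rose by a similar size in intronic and exonic reads. Col4a5 had 737 and 872 against 1631 and 1619, a rise of 1.02 ± 0.14 (adjusted p = 0.0241). Its call was lost without either Dicer KO library, with a log2 change of 1.01 or 1.02 and adjusted p of 0.149 or 0.160. The exonic call of Col4a5 was lost without Dicer KO library 2 (1.07, adjusted p = 0.0592), and the intronic call of Col4a2 without Dicer KO library 1 (1.72, adjusted p = 0.0513).

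Col4a6 had 191 and 275 intronic counts in Dicer WT and 16.8 and 18.0 in Dicer KO, a fall of 3.65 ± 0.29 on the log2 scale (limma adjusted p = 0.0069). Intronic signal in Dicer KO was thus 7.46% of that in Dicer WT and exonic signal 1.44%. The difference between exonic and intronic log2 change was -2.07 ± 0.66 for Col4a6, which did not pass (limma adjusted p = 0.797); 0.0106% of 9402 genes did, the single gene being Nr6a1. With each exonic library joined to the intronic library that deviated the same way over all genes, 3.92% passed and Col4a6 was among them (adjusted p = 0.0251). The same difference was 0.17 ± 0.29 for Col4a1, 0.02 ± 0.26 for Col4a2 and 0.16 ± 0.20 for Col4a5, and none of these passed under either design.

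**Figure D2:**
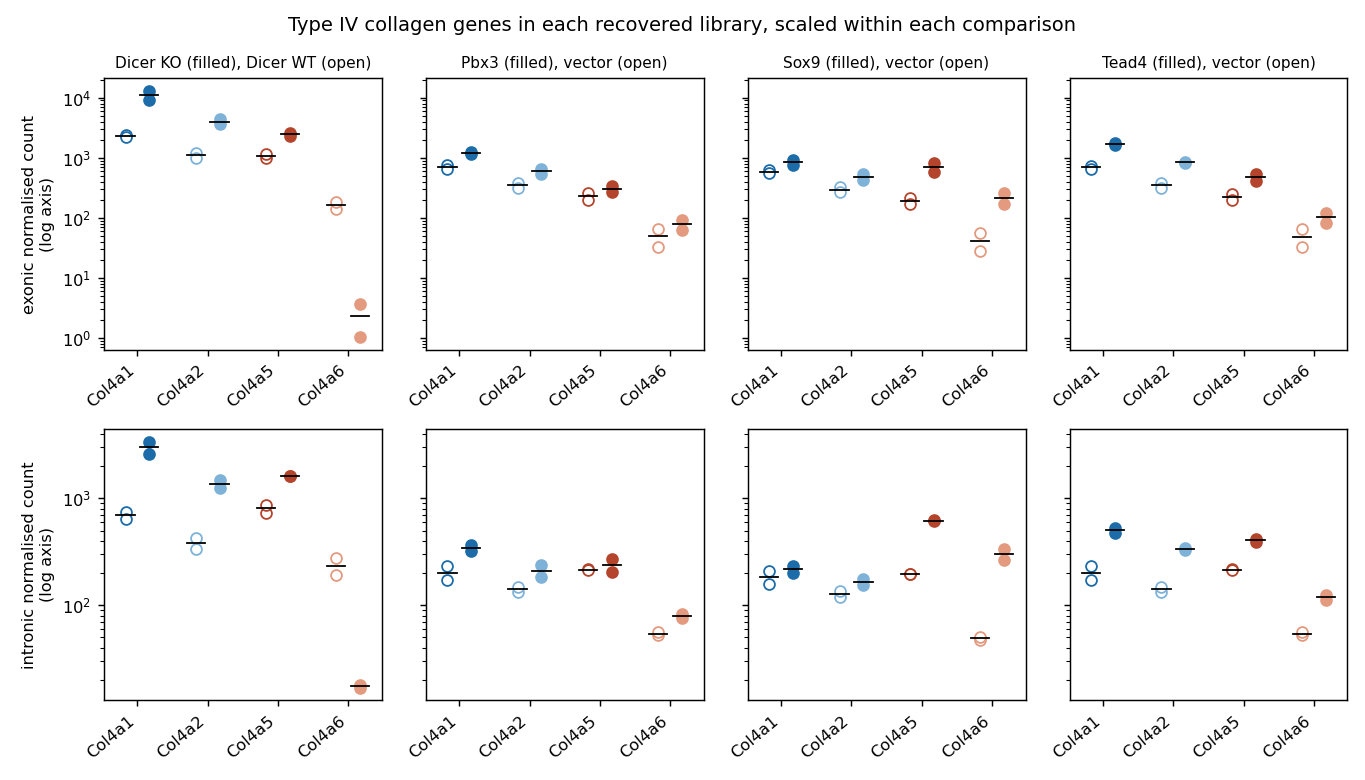
Exonic (top) and intronic (bottom) normalised counts (log axes) of 4 type IV collagen genes in each comparison, with open points for the 2 control libraries, filled points for the 2 treated libraries and a line at each mean. Col4a1, Col4a2 and Col4a5 lie higher in Dicer KO and Col4a6 lies far lower, at 3.67 and 1.03 exonic counts, whereas Sox9 libraries are higher for Col4a5 and Col4a6.

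The divergence of Col4a5 and Col4a6 was set beside the other head-to-head pairs of the annotation, 952 with starts at most 2000 bases apart, of which 476 had both genes at the minimum in exonic reads. The log2 ratio of Col4a5 to Col4a6 was 2.84 and 2.63 in Dicer WT and 8.92 and 10.3 in Dicer KO, a difference of 6.89 ± 0.54 (limma over all pairs, adjusted p = 0.0007), where 4.83% of pairs passed. No other of the 476 pairs came as far apart; the median absolute difference was 0.31, and 3 pairs had both genes called in opposite directions against 8 in the same direction. In intronic reads the difference was 4.67 ± 0.23 (adjusted p = 0.0002), again the farthest, of 410 pairs with 1.22% called. This comparison of pairs was added after the values had been seen. Col4a6 reached the minimum only through Dicer WT, with means of 163 exonic and 233 intronic counts there. In Dicer KO its means were 2.35 and 17.4, so the place of this pair among the others is a description only. The Col4a1 to Col4a2 ratio differed by 0.41 ± 0.20 in exonic (adjusted p = 0.248) and 0.26 ± 0.22 in intronic reads (adjusted p = 0.783), so that a shift in it was not shown.

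**Figure D3:**
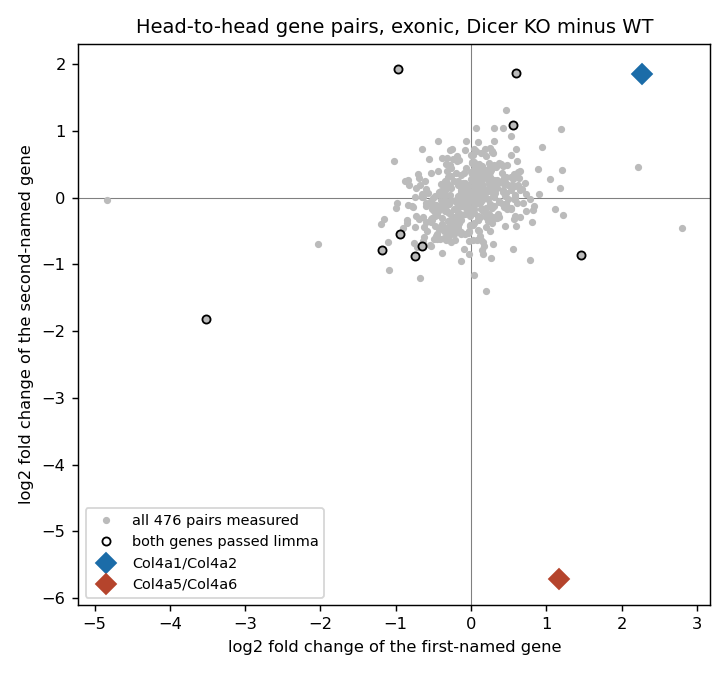
Exonic log2 fold changes, Dicer KO minus Dicer WT, of the first-named and second-named gene of 476 head-to-head pairs, with rings where both genes passed limma. Col4a5 with Col4a6 lies at 1.17 and -5.72, away from the other pairs, and Col4a1 with Col4a2 at 2.27 and 1.86.

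The genes that flank the pairs were compared in the same way, in exonic reads where 16.6% of all genes passed. The 3 nearest measured genes on each side of Col4a5 and Col4a6 were Atg4a, Psmd10 and Mid2, which did not pass in exonic reads (0.15 to 0.53), and Nxt2 (-0.59 ± 0.14, limma adjusted p = 0.0474), Acsl4 (0.65 ± 0.13, 0.0336) and Tmem164 (0.88 ± 0.16, 0.0244), which did. Around Col4a1 and Col4a2, Abhd13 rose by 0.84 ± 0.17 (adjusted p = 0.0336), and Irs2, Tnfsf13b, Rab20, Cars2 and Ing1 ranged from -0.18 to 1.30 and did not pass. Around Col4a3 and Col4a4, Rhbdd1 (0.81 ± 0.19, 0.0442) and Agfg1 (0.88 ± 0.15, 0.0226) rose, and Irs1, Cul3, Mff and Trip12 did not pass. In intronic reads, where 6.51% of all genes passed, Tmem164 alone of the flanking genes passed (0.73 ± 0.13, limma adjusted p = 0.0440).

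Sox9 is a transcription factor of cartilage and other lineages. In Sox9 cells the X-linked pair rose, with the clearest values in intronic reads, where 1.99% of 8361 genes passed, 1.45% as higher. Col4a5 had 194 and 195 intronic counts in vector and 611 and 629 in Sox9, a rise of 1.67 ± 0.15 (limma adjusted p = 0.0010). Col4a6 had 47.4 and 50.8 in vector and 263 and 335 in Sox9, a rise of 2.57 ± 0.20 (adjusted p = 0.0005). At the main minimum Col4a6 was tested only through Sox9 cells, since its vector means were 49.1 intronic and 41.5 exonic counts. Its call at that minimum is therefore a description. In exonic reads, where 0.547% of 9698 genes passed and 0.454% as higher, Col4a5 went from 214 and 169 to 819 and 583 and rose by 1.86 ± 0.22 (adjusted p = 0.0168). Exonic Col4a6 had 55.2 and 27.7 against 264 and 171, a log2 change of 2.41 ± 0.38 that did not pass (adjusted p = 0.0536). That its groups did not overlap is a description only. Exonic Col4a6 passed with a pseudocount of 5 (limma adjusted p = 0.0475), with a minimum mean of 10 (0.0328) and in the authors' deposited table (0.0091).

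The autosomal pair had smaller values in Sox9 cells and did not pass. Exonic Col4a1 had 627 and 549 counts in vector and 921 and 771 in Sox9, a log2 change of 0.52 ± 0.18 (limma adjusted p = 0.304), and Col4a2 had 323 and 265 against 545 and 423, a change of 0.71 ± 0.20 (adjusted p = 0.244). Without vector library 1 these were 0.62 and 0.85, in a fit with 1 vector library left, from which no call is read. Their intronic changes were 0.26 ± 0.19 (adjusted p = 0.522) and 0.36 ± 0.18 (adjusted p = 0.351).

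Tead4 is a DNA-binding partner of the YAP and TAZ coactivators. In Tead4 cells all 4 measured collagens were higher, and 3 rose in intronic reads, where 1.61% of 8582 genes passed, 0.757% as higher. Intronic Col4a1 had 231 and 173 counts in vector and 479 and 533 in Tead4, a rise of 1.33 ± 0.18 (limma adjusted p = 0.0168), and Col4a2 had 133 and 149 against 344 and 329, a rise of 1.25 ± 0.16 (adjusted p = 0.0136). Col4a5 had 216 and 214 against 393 and 421, a rise of 0.91 ± 0.14 (adjusted p = 0.0295). Col4a6 had 52.8 and 55.8 against 113 and 124, a change of 1.11 ± 0.21 that missed the threshold (adjusted p = 0.0501) and passed with a pseudocount of 5 (0.0487). The calls of Col4a2 and Col4a5 were lost without Tead4 library 1 (adjusted p = 0.0691 and 0.167) and that of Col4a5 also without Tead4 library 2 (0.122) and with voom weights on the recovered reads (0.0520).

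Exonic reads of Tead4 cells gave log2 changes of the same size that did not pass, in a comparison where 0.143% of 9796 genes did, 0.0817% as higher. Col4a1 had 745 and 645 counts in vector and 1640 and 1735 in Tead4, a change of 1.28 ± 0.14 (limma adjusted p = 0.0567), and Col4a2 had 383 and 312 against 826 and 851, a change of 1.28 ± 0.15 (adjusted p = 0.0670). Col4a5 had 254 and 199 against 418 and 534, a change of 1.07 ± 0.20 (adjusted p = 0.121), and Col4a6 had 65.6 and 32.6 against 82.6 and 121, a change of 1.09 ± 0.41 (adjusted p = 0.291). The groups did not overlap for any of the 4, which is a description only, since the share of all genes without overlap is not given here. In the authors' deposited table the adjusted p was 5.5e-06 for Col4a1, 3.7e-05 for Col4a2, 0.0118 for Col4a5 and 0.654 for Col4a6. With all 4 vector groups in 1 fit, added after the values had been seen and calling 0.890% of genes, Col4a1 (1.28, adjusted p = 0.0132) and Col4a2 (1.27, 0.0405) passed. Without either vector library the changes of Col4a1, Col4a2 and Col4a5 were 0.90 to 1.42, and without vector library 1 that of Col4a6 was 1.59. These fits leave 1 vector library, so no call is read from them.

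Pbx3 is a homeodomain transcription factor. In Pbx3 cells no collagen passed in exonic reads, where 1 gene, Pbx3 itself, did (0.0102% of 9826), or in intronic reads, where limma called 0% of 8557 genes, 248 were under an unadjusted p of 0.05 and the authors' test called 15. Exonic Col4a1 had 754 and 655 counts in vector and 1253 and 1145 in Pbx3, a log2 change of 0.77 ± 0.17. Col4a2 had 388 and 316 against 660 and 529, a change of 0.75 ± 0.21 (limma adjusted p = 0.9998 for both). That the groups did not overlap for either gene is a description only. Col4a5 had 257 and 202 against 266 and 341, a change of 0.40 ± 0.23, and Col4a6 had 66.4 and 33.1 against 64.1 and 92.5, a change of 0.70 ± 0.45 with overlapping groups. Intronic changes were 0.78 ± 0.20 for Col4a1, 0.57 ± 0.20 for Col4a2, 0.13 ± 0.20 for Col4a5 and 0.54 ± 0.24 for Col4a6 (adjusted p = 0.9999).

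**Figure D4:**
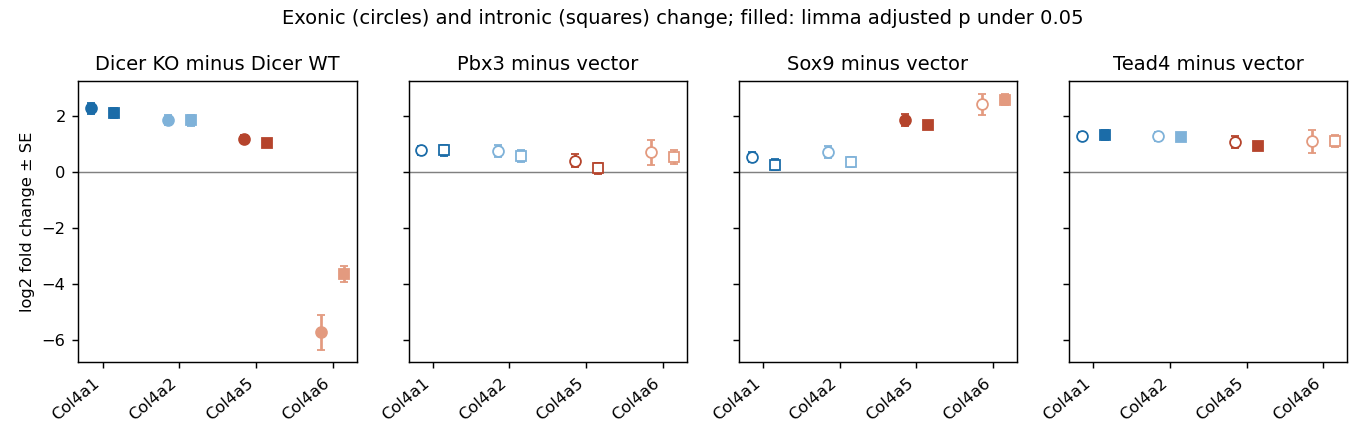
Limma log2 fold change with its standard error in exonic (circles) and intronic reads (squares) for each comparison, filled where the adjusted p was under 0.05. Col4a5 and Col4a6 have the larger changes in Sox9 cells, at 1.67 to 2.57, whereas the 4 genes lie between 0.91 and 1.33 in Tead4 cells.

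The factor groups were also set against each other in the fit that joins the 4 transfected groups. In intronic reads, where 5.99% of 8484 genes differed between Sox9 and Tead4 cells, Sox9 cells were lower than Tead4 cells in Col4a1 (-1.06 ± 0.18, limma adjusted p = 0.0120) and Col4a2 (-0.88 ± 0.17, 0.0215) and higher in Col4a5 (0.76 ± 0.15, 0.0250) and Col4a6 (1.48 ± 0.18, 0.0036). The pairs therefore differed between these cells in opposite directions. In exonic reads, with 3.56% called, Col4a1 passed (-0.76 ± 0.14, adjusted p = 0.0332), and Col4a2 (-0.56 ± 0.19, 0.146), Col4a5 (0.79 ± 0.24, 0.115) and Col4a6 (1.32 ± 0.40, 0.121) had the same directions and did not pass. Against Pbx3 cells, Sox9 cells were higher in intronic Col4a5 (1.54 ± 0.15, adjusted p = 0.0014) and Col4a6 (2.03 ± 0.18, 0.0011), with 4.48% called. In exonic reads, with 0.941% called, Col4a5 passed (1.46 ± 0.24, adjusted p = 0.0415) and Col4a6 did not (1.71 ± 0.40, 0.101). Tead4 cells exceeded Pbx3 cells in intronic Col4a5 (0.78 ± 0.15, adjusted p = 0.0499), with 1.53% called, and did not pass for Col4a1, Col4a2 or Col4a6 (0.55 to 0.67, adjusted p = 0.0993 to 0.180). In exonic reads of that contrast, with 0.787% called, none of the 4 passed, Col4a5 included (0.66 ± 0.24, adjusted p = 0.221).

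Within the X-linked pair the ratio of Col4a5 to Col4a6 was not shown to change in the factor cells. In Sox9 cells it differed by -0.55 ± 0.28 in exonic (limma over pairs, adjusted p = 0.650, 0.231% called) and -0.91 ± 0.21 in intronic reads (adjusted p = 0.226, 0.645% called). In Tead4 cells the differences were -0.02 ± 0.27 and -0.19 ± 0.17, and in Pbx3 cells -0.30 ± 0.30 and -0.42 ± 0.25, with 0% of pairs called in each. The Col4a1 to Col4a2 ratio moved by -0.19 to 0.21 in the 3 factor groups. The wide shift within a pair in Dicer KO thus had no counterpart of its size in transfected cells.

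**Figure D5:**
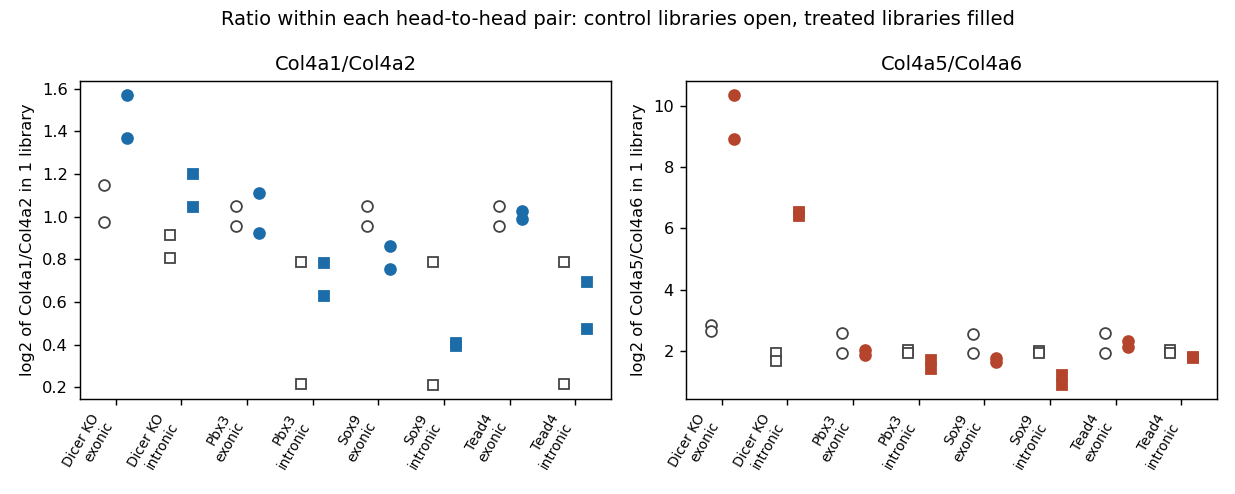
Log2 ratio of the genes of each head-to-head pair in single libraries, control open and treated filled, exonic as circles and intronic as squares, with a different vertical scale in each panel. Col4a5 over Col4a6 reaches 8.92 and 10.3 in exonic and 6.52 and 6.41 in intronic Dicer KO reads and lies between 0.90 and 2.84 in the other libraries, while Col4a1 over Col4a2 stays between 0.21 and 1.57.

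Across the 12 libraries, Col4a2 was the gene whose exonic log2 values followed Col4a1 most closely, with a Pearson r of 0.99 among 10172 genes, and 0.97 without the Dicer KO libraries. The next 5 were Trim35, Dcaf7, B4galt5, Spryd3 and Phgdh, with r from 0.95 to 0.96, which fell to between 0.73 and 0.81 without Dicer KO. Col4a5 and Col4a6 had r = -0.37 over all 12 libraries and 0.91 over the 10 libraries without Dicer KO. The genes most like Col4a5 were Igsf3, 2700081O15Rik, Npc1, Itgb3, an integrin subunit, and Gcnt4, with r from 0.94 to 0.96. These correlations are descriptions over libraries that come in pairs from 6 groups and share their scale, so they carry no test.

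The lists of genes that work with collagen IV were read in exonic reads of Dicer KO against the 9.28% of all genes that rose and the 7.36% that fell. Of 17 measured folding and modification genes 1 rose, Leprel1, a prolyl 3-hydroxylase (1.11 ± 0.14, limma adjusted p = 0.0108), and 3 fell, the related Leprel2 (-2.49 ± 0.21, 0.0050), Leprel4 (-0.67 ± 0.14, 0.0363) and Ppib, a prolyl isomerase of the endoplasmic reticulum (-0.98 ± 0.13, 0.0122). The list had a median of -0.08, against 0.01 for all genes. Of 11 measured genes for export from the endoplasmic reticulum 2 fell, the COPII coat genes Sar1a (-1.04 ± 0.12, 0.0085) and Sec31a (-0.72 ± 0.15, 0.0342), and the median was -0.19. Pxdn, the peroxidase that makes the sulfilimine crosslinks of collagen IV, rose by 2.28 ± 0.18 (0.0046), while Loxl2 and Sparc, the other 2 of its list, did not pass. In intronic reads, where 2.86% of all genes rose and 3.65% fell, 0 of 17 folding genes rose and 3 fell, 2 of 11 export genes fell, and Pxdn rose by 1.60 ± 0.16 (0.0107).

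Of 19 measured basement membrane partners in Dicer KO 5 rose and 2 fell in exonic reads, where 9.28% of all genes rose and 7.36% fell, with a median of 0.68. The laminin chains Lama1 (4.49 ± 0.87, limma adjusted p = 0.0293), Lama5 (2.19 ± 0.43, 0.0307), Lamb1 (1.68 ± 0.27, 0.0193) and Lamc1 (1.03 ± 0.18, 0.0222) rose with Tinagl1 (4.39 ± 0.28, 0.0034). Lamb2 fell (-1.29 ± 0.24, 0.0270) and Lama4 fell from a mean of 204 exonic counts to 0. Lama4 was thus measured only through Dicer WT, and its place in the count is a description. In intronic reads 3 of 18 partners rose, Tinagl1, Lama1 and Lamb1, and 1 fell, Lamb2, with a median of 0.37, while Lama5 (1.99 ± 0.64, 0.145) and Lamc1 (0.37 ± 0.12, 0.148) did not pass. Intronic Lama1 was measured only through Dicer KO, with means of 7.63 in Dicer WT and 128 in Dicer KO, so its call is also a description. Of 7 measured receptors 4 rose in exonic reads, beside the same 9.28%, with a median of 0.81: Itgb3 (2.31 ± 0.25, 0.0070), Itga3 (1.70 ± 0.33, 0.0302), the collagen receptor kinase Ddr2 (1.101 ± 0.142, 0.0110) and Itgav (0.81 ± 0.15, 0.0256). In intronic reads 1 of 6 receptors rose, Ddr2 (0.85 ± 0.12, 0.0265), the median was 0.08, and Itga3 (1.32 ± 0.32, 0.0853) and Itgav (0.24 ± 0.21, 0.520) did not pass. Of 7 measured turnover genes the protease Plau rose (2.23 ± 0.14, 0.0034), and the gelatinase Mmp2 (-5.10 ± 0.22, 0.0018) and its inhibitor Timp2 (-0.82 ± 0.16, 0.0298) fell. In intronic reads Plau rose and Mmp2 fell, and the other 5 of 7 measured did not pass. Intronic Mmp2 was measured only through Dicer WT, with means of 243 in Dicer WT and 11.4 in Dicer KO.

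In exonic reads of Sox9 cells, where 0.454% of all genes rose, 2 of 14 measured basement membrane partners rose, Lama4 (2.55 ± 0.28, limma adjusted p = 0.0105) and Nid2, a nidogen that links laminin to collagen IV (1.86 ± 0.28, 0.0460), with a list median of 0.67 against -0.02 for all genes. In intronic reads of Sox9 cells, where 1.45% of all genes rose and 0.538% fell, Lama4 rose (2.85 ± 0.20, 0.0003) and Fbln2, a fibulin, fell (-1.10 ± 0.18, 0.0174) among 12 partners, and of 16 folding genes P4ha3, a prolyl 4-hydroxylase subunit, rose (1.13 ± 0.23, 0.0491). In intronic reads of Tead4 cells, where 0.851% fell, Lama4 fell (-3.09 ± 0.41, 0.0162) among 11 partners. The other lists of collagen IV genes had 0 genes called in exonic and in intronic reads of Pbx3, Sox9 and Tead4 cells.

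The label of the cells was checked with markers in exonic reads. Of 12 stromal markers 11 reached a mean of 50 normalised counts on the joint scale, Vim and Itgb1 among them, and Thy1 was listed at 0 in exonic reads of every library. The 8 endothelial, 8 epithelial and 8 blood markers all stayed below that mean and summed to 4.09 to 18.3, 0 to 7.63 and 20.4 to 39.4 counts per library, with Cdh5, Cldn5, Krt18 and Cd3e at 0 in exonic reads of every library. Cdh5 did have intronic reads, 2 to 3 in each of the 4 Dicer WT and Dicer KO libraries and 35 to 96 in each of the 8 vector, Pbx3, Sox9 and Tead4 libraries. Its exonic 0 is therefore no measure of its absence. The part of these intronic reads in the collagen values was not tested. Of 6 podocyte genes, which mark a cell known for the glomerular trimer, Synpo alone reached the mean of 50, and Nphs1 and Wt1 were at 0 in exonic reads. Of the 8 smooth muscle and pericyte genes 6 reached it, and their sum ranged from 8095 to 67639 counts per library. In Dicer KO, where 7.36% of all genes fell, 2 of 6 measured fell, Cnn1 (-5.86 ± 0.44, limma adjusted p = 0.0043) and Acta2 (-2.04 ± 0.41, 0.0325), and 4 did not pass. The exonic median of the list was -1.03 over 6 measured genes in Dicer KO, -0.13 over 3 in Pbx3, 0.37 over 4 in Sox9 and -0.57 over 3 in Tead4 cells. These medians rest on different numbers of genes, of which 0 were called in Pbx3, Sox9 or Tead4 cells. Exonic Col4a6, a chain known from smooth muscle, changed by -5.72, 0.70, 2.41 and 1.09 in the same order. The part of these genes in the Col4a6 values was not tested.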

How the data were processed

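Strand-specific, ribosome-depleted total RNA libraries were sequenced single-end, per the labels' protocols. Bowtie2, DESeq 1.10.1 and mm9 are named in the submitters' processing notes; no annotation or counter is named there, and whether counting used the strand is not given in the sources used here, so reads in the 21-base overlap of Col4a1 and Col4a2 cannot be assigned with certainty. The authors deposited signal columns (reads scaled by size factors, then given as the mean of each group), the ratio of the means as a fold change, its log2 value, and p-values with adjusted p-values, per the file headers. 0 columns were left without a group.

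The labels list 1 sample per group, yet each mean resolved into whole reads of 2 libraries for 100% of genes (tolerance 1e-09), and the vector reads recovered from 3 tables were identical. No label says that the libraries came from separate cultures, so p-values measure only the spread between them, which may be technical. Libraries are numbered by size factor, so a number alone does not pair an exonic with an intronic library. By their differences over 8537 genes, the same numbers went together in every group (r = 0.64 to 0.88) except Dicer KO, where they were crossed (r = -0.79). The main exonic minus intronic fit left them unpaired. Limma 3.58.1 (R 4.3.3) with a mean-variance trend was fitted to log2(normalised count + 1) of genes with a mean of at least 50, 2 libraries against 2, and p was adjusted by Benjamini-Hochberg, with 0.05 as the limit; the design allowed a count test only for deposited counts. "Rose" and "fell" mean passing it. The mean of at least 50 was taken over both groups, so some genes were tested only through the group where they were high. The scripts were tested on simulated data with 200 changed genes. False calls ranged from 2.16% (intronic Pbx3) to 7.69% (exonic Dicer KO). They also exceeded the limit of 0.05 in intronic Tead4 (6.32%) and exonic Sox9 (5.10%). Levels used median-of-ratios scaling of the recovered reads over all 12 libraries, with lengths from GENCODE on GRCm38; promoters and microRNAs come from RefSeq, in which 5 of the 6 genes had a window. Named genes were the 6 members, the genes of each list that passed (at most 6 by lowest p; Lama5 was added after its values were seen), 3 flanking genes on each side of a pair, and the 5 genes most like Col4a1 and Col4a5. The members and lists were chosen with earlier results of these data known. Alternatives were other pseudocounts and minimums, voom, the authors' adjusted p, leaving out each library, pairing of exonic with intronic libraries, and scaling to library totals for the levels; the joint fit of 4 groups and the pair ratios were added after the values were seen.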

Additional observations from a re-analysis of the deposited data

How the results depend on the processing

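No collagen gene reversed. With a pseudocount of 5, 34 of 36 refitted collagen values kept their side of the threshold and 2 passed where they had not. These numbers were 29 of 32 and 3 with a minimum mean of 10, and 28 of 32 and 4 with the authors' adjusted p. They were 21 of 24 and 3 in the joint fit of 4 groups, and 3 of 4 and 1 with paired libraries. With voom 31 of 32 kept their side and 1 no longer passed. Fits without 1 library are not counted here, and calls lost in them are given above. Scaling to library totals moved the exonic log2 ratio of Dicer WT to vector by less than its spread between libraries in each of the 4 expressed genes, and other levels were not compared. Counts of genes called moved more. With a minimum mean of 10, Sox9 exonic, Tead4 exonic and Tead4 intronic counts were 105, 23 and 210, against 53, 14 and 138. With a minimum of 200, Dicer KO intronic, Sox9 exonic, Tead4 exonic and Tead4 intronic counts were 377 (against 665), 23, 9 and 50. Voom gave 6 in Tead4 exonic and 54 in Tead4 intronic reads. The authors' adjusted p gave 13 for Pbx3 exonic (against 1), 15 for Pbx3 intronic (against 0), 109 for Sox9 exonic and 205 for Tead4 exonic reads. The joint fit of 4 groups gave 3, 10 and 87 for Pbx3 exonic, Pbx3 intronic and Tead4 exonic reads. Pairing exonic with intronic libraries gave 369 genes (against 1). The cause of these shifts was not tested.

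Leaving out 1 library gave 535 to 1908 (exonic, Dicer KO), 162 to 955 (intronic, Dicer KO), 4 to 19 (exonic, Pbx3), 8 to 45 (intronic, Pbx3), 73 to 1271 (exonic, Sox9), 114 to 389 (intronic, Sox9), 5 to 2375 (exonic, Tead4), 49 to 900 (intronic, Tead4) and 0 to 1 (exonic minus intronic, Dicer KO). The single library left in a group is then assumed to vary like the others; without vector library 1 the Tead4 exonic count was 2375 and the Sox9 exonic count 1271. Between groups no paired analysis was possible because the labels give no replicate numbers. Depth limited Col4a3 and Col4a4 in all groups and exonic Col4a6 in Dicer KO.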
